A study of Mus musculus with 6 samples.

Results

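The nuclear oxidative phosphorylation genes were followed in cancer-associated fibroblasts (CAFs) with and without the surface protein CD34. The members were the protein-coding genes whose symbols name a nuclear-encoded subunit of respiratory complexes I to V (Nduf, Sdh, Uqcr and Cyc1, Cox4 to Cox8, and Atp5 symbols), 85 of the 27179 genes in the table. Complex I held 36 of them, complex II 4, complex III 9, complex IV 19 and complex V 17. Ndufa4, which is named as a complex I gene but belongs to cytochrome c oxidase, was counted with complex IV. Some of these symbols are isoforms of other tissues or subunits with a second role, such as Cox7a2l, which takes part in supercomplex assembly.

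Bulk RNA sequencing was carried out on GFP+ CAFs sorted from 3 mammary tumors of female raGFP-Wnt1 mice. These mice, from a cross of FVB/NJ with C57BL/6 animals, carry MMTV-Wnt1, a transgene that drives Wnt1 in the mammary epithelium, and the heterozygous reporter Pdgfra-H2B-GFP. Both groups share both alleles, and the cells sorted are those in which the Pdgfra locus was active, which need not be all CAFs. Age and treatment were not given in the sources used here. Each tumor gave a CD34 negative and a CD34 positive library, 6 libraries in all and 3 per group, which asks how the 2 CAF fractions of a tumor differ. The library totals ran from 16238059 to 86609267 counts, and members took between 0.319% and 0.459% of them. Cd34, the sorted marker, was lower in the CD34 negative library of every tumor, with a log2 fold change of -3.63 ± 0.439 (SE; limma-voom adjusted p = 0.0414). Among 5 fibroblast markers, Pdgfra reached at least 302 CPM (counts per 1000000 counts of a library) in all 6 libraries. Without a tumor term, Dcn and Lum, which encode matrix proteoglycans, had log2 fold changes of -1.18 and -0.79, Igfbp5 -0.94 and Col1a2 0.35. The median of the 5 was -0.79. With the tumor as a block, limma-voom called Dcn and Lum lower in CD34 negative CAFs (adjusted p = 0.00154 and 0.0140). Igfbp5 and Col1a2 were not called. Defining markers of fat cells were at or near 0, with Adipoq at most 0.882 CPM. CD34 negative library 3 stood apart with 14314 genes detected, against 16253 to 19220 in the others.

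Oxidative phosphorylation passes electrons from NADH through complex I, or from succinate through complex II, to coenzyme Q, complex III, cytochrome c and finally complex IV, which reduces oxygen. The proton gradient so built drives ATP synthase, complex V. Each complex except complex II also holds subunits encoded by mitochondrial DNA, so the nuclear genes and the mitochondrial genome must both supply parts. Fibroblasts of tumors are known to vary in their reliance on glycolysis and respiration, and several subunits exist as isoforms used in muscle, testis, lung or low oxygen.

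Of the 85 members, 80 passed the filter on low counts and were tested. The study's methods name limma-voom but not whether the tumor was a term. In limma-voom without a tumor term, 0 of the 80 had an adjusted p under 0.05, beside 18 of all 14855 tested genes (0.121%). At an unadjusted p under 0.05 there were 10 members, 12.5%, beside 14.3% of all tested genes. edgeR's quasi-likelihood test called 0 members, beside 0.0606% of all tested genes, and DESeq2 called 1, Cox6b2, beside 4.7%. With the tumor as a block, which compares the fractions within each tumor, limma-voom called 4 members, 5% of the 80, beside 8.57% of all tested genes. No result about the group is read from these 4 calls, and the 4 genes are described as single genes. Cox6b2 and Ndufa6 were higher in CD34 negative CAFs with the block (higher calls made up 4.32% of all tested genes), and Cox6b1 and Atp5k were lower (lower calls made up 4.25%).

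The regions before these 4 genes are shown because they are the members that limma-voom called with the block. DESeq2 with the block called 6 members, these 4 and Ndufs1 and Uqcrb, whose regions are not shown. Each runs from 250 bases before the RefSeq start to 30 bases after it (GRCm38.p6, minus strand, 5′ to 3′): Cox6b2 at chr7:4753065-4753344, Cox6b1 at chr7:30626085-30626364, Ndufa6 at chr15:82354262-82354541 and Atp5k at chr5:108434370-108434649. Capitals mark matches, on either strand, to GCGCATGC (the letters of an NRF1 element), CGGAAG (an ETS core, as bound by GABP), CCAAT, AAGATGGC (YY1), AAGGTCA (ERR) and TATAAA.

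Cox6b2: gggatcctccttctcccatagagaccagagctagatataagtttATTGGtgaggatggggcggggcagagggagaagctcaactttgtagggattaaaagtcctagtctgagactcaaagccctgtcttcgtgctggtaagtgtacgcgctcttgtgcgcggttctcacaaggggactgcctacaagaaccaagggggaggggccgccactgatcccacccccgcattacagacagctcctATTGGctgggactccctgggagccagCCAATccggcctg
Cox6b1: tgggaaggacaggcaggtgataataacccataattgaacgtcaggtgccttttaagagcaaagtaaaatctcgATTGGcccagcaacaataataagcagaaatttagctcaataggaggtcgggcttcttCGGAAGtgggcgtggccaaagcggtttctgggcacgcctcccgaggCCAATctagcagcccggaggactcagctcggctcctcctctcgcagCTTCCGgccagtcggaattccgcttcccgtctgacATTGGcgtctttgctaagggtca
Ndufa6: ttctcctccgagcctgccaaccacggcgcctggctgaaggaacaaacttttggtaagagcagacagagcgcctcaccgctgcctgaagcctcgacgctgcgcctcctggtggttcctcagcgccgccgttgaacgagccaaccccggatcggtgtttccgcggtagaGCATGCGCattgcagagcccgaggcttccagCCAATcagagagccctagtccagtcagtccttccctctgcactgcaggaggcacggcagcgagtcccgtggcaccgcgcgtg
Atp5k: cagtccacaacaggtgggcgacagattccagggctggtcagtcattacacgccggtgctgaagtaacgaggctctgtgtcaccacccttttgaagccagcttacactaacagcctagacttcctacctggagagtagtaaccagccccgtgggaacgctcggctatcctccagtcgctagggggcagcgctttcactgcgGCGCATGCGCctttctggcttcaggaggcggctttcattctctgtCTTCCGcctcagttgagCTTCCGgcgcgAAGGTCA

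Cox6b2 held 3 matches to CCAAT and none to the other 5 motifs in this window, whereas Cox6b1 held both CCAAT and ETS letters, and Ndufa6 an NRF1 match and a CCAAT match. In Atp5k, the NRF1 letters lay on both strands and overlapped, followed by ETS matches and an ERR match. Among the 69 members with a RefSeq window, GCGCATGC was found for 9 (13%) against 2.92% of the 27025 genes with one, and CGGAAG for 27 (39.1%) against 17.9%. CCAAT was found for 43.5% of members and 39.7% of all genes, AAGATGGC for 5.8% and 2.66%, AAGGTCA for 8.7% and 5.1%, and TATAAA for 11.6% and 15.1%. These are matches of letters, not measured binding.

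**Figure D1:**
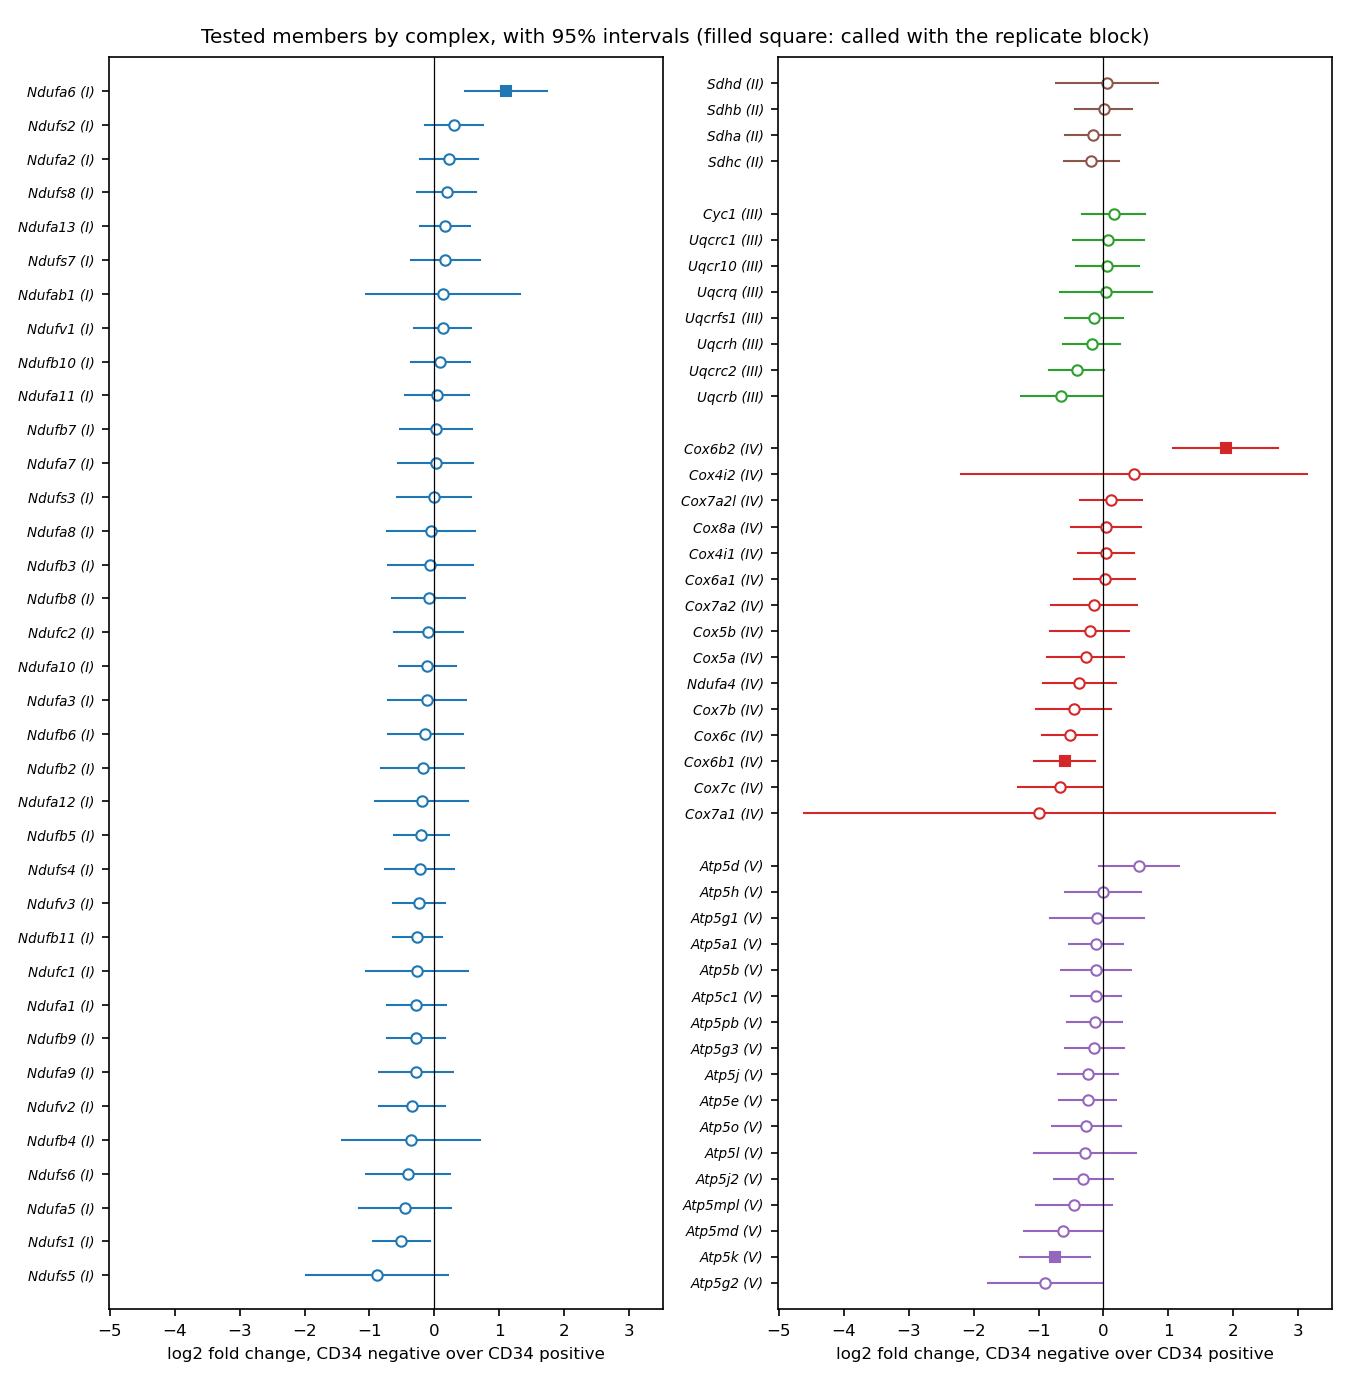
Log2 fold change (CD34 negative over CD34 positive, x axis) of the 80 tested members with 95% intervals from limma-voom without a tumor term, grouped by complex. Filled squares mark the 4 members called with the tumor as a block, and Cox6b2 lies farthest from 0 at 1.88.

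Cox6b2 encodes the testis isoform of the complex IV subunit 6B, which sits on the intermembrane side of the enzyme near the site of cytochrome c. Its level was 9.41, 10.2 and 12.6 CPM in CD34 negative CAFs of tumors 1 to 3, and 3.09, 3.03 and 2.22 CPM in CD34 positive CAFs. The groups did not overlap, and the mean was 10.7 ± 1.66 CPM (SD, n = 3) against 2.78 ± 0.486 (SD, n = 3). The log2 fold change was 1.88 ± 0.355 (SE), with within-tumor ratios of 1.59, 1.74 and 2.49. Its adjusted p was 0.0796 in limma-voom without the block, so it missed the threshold there. With the block its adjusted p was 0.0142, at a log2 fold change of 1.90 ± 0.369 (SE). In edgeR Cox6b2 likewise missed the threshold without the block (adjusted p = 0.0926) and passed with it (0.0389). DESeq2 called it in both fits (1.78e-05 and 5.28e-05). Reads behind the value numbered 50 to 529 per library. With the block and without tumor 2 the call was lost (limma-voom adjusted p = 0.129), at a log2 fold change of 2.14, and it held without tumor 1 or tumor 3.

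Cox6b1, the somatic isoform of the same subunit, was at 46.3, 60.4 and 52.0 CPM in CD34 negative CAFs and at 66.4, 99.7 and 73.6 CPM in CD34 positive CAFs. The groups did not overlap here either. The log2 fold change was -0.60 ± 0.206 without and -0.59 ± 0.137 with the block (SE; limma-voom adjusted p = 0.247 and 0.0284). edgeR with the block did not call it (adjusted p = 0.0683). Per length, Cox6b1 remained the main isoform in both fractions. Cox6b2 made up 14.5%, 12.3% and 16.8% of the pair's level per length (RPKM, CPM per kilobase of gene) in CD34 negative CAFs, and 3.75%, 2.48% and 2.46% in CD34 positive CAFs. The mean share was 14.6% ± 2.25 (SD, n = 3) against 2.90% ± 0.737 (SD, n = 3), higher in 3 of 3 tumors. An exact two-sided permutation test gave p = 0.1, the smallest that 3 against 3 libraries allow, and 0.25 after Benjamini-Hochberg adjustment over the 5 isoform shares computed. This test treated all libraries as independent and did not use their pairing by tumor.

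**Figure D2:**
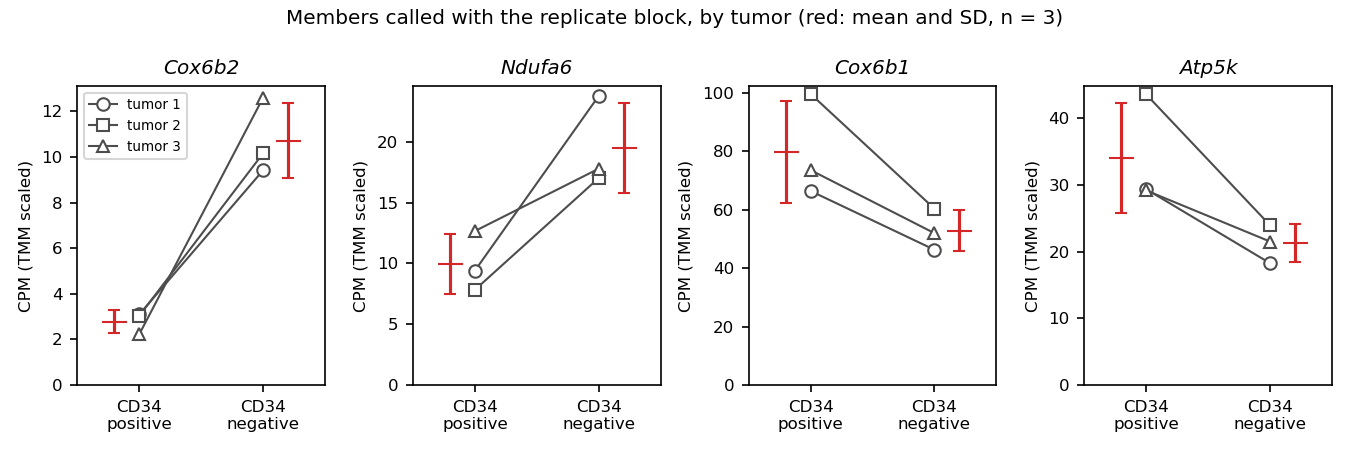
CPM (y axis) of the 4 members called with the block, with lines joining the 2 libraries of a tumor and red bars giving the mean and SD of each group. Cox6b2 and Ndufa6 lie higher, and Cox6b1 and Atp5k lower, in the CD34 negative library of all 3 tumors.

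The genes lie apart on chromosome 7, Cox6b2 at 4751792 to 4753094 and Cox6b1 at 30616971 to 30626114 (GRCm38.p6). Their annotated transcripts shared no run of bases longer than 14, and none of their 50-base windows occurred in a transcript of another gene in the GENCODE annotation. In the same libraries, the pericyte markers Mcam and Rgs5 summed to 41.4 to 49.6 CPM in CD34 negative CAFs and 4.23 to 17.6 in CD34 positive CAFs. Mcam passed with the block (limma-voom adjusted p = 0.00251). The 4 muscle markers summed to 2.97 to 13.3 CPM in CD34 negative and 1.52 to 1.86 CPM in CD34 positive CAFs. Of them, Des was higher with the block (limma-voom adjusted p = 0.0362), while Acta1, the other one tested, had a log2 fold change of -0.35 ± 1.27 (SE) and Myf5 was at 0 in all libraries. The 5 epithelial markers summed to 46.8 to 140 CPM in CD34 negative and 16.3 to 128 CPM in CD34 positive CAFs. Their log2 fold changes ran from 0.50 to 1.05, and Epcam, Krt8 and Krt18 were higher in 3 of 3 tumors. Of the 5, 0 were called by limma-voom with or without the block. At an unadjusted p under 0.05 there were 0 without the block and 2 with it, beside 14.3% and 23.3% of all tested genes. The 4 Schwann cell markers summed to 14.8 to 22.0 CPM in CD34 negative and 7.19 to 12.1 CPM in CD34 positive CAFs, with 0 called with the block. The 2 keratinocyte markers went the other way, at 1.04 to 3.84 and 7.10 to 10.8 CPM. With the block, limma-voom called 1 of these 2 lower, beside 4.25% of all tested genes. Sums of endothelial, macrophage, erythroid and T cell markers overlapped between the groups. Whether cells of another type contributed to the Cox6b2 difference was not tested, and in bulk libraries fewer cells of a type cannot be told apart from less RNA per cell.

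**Figure D3:**
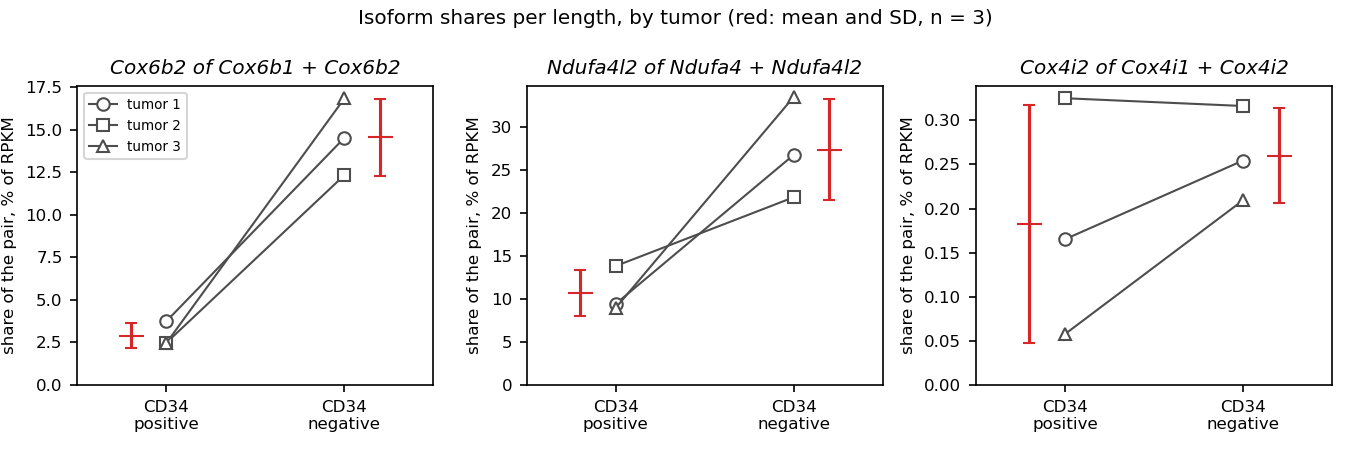
Share of the second isoform in 3 pairs, in percent of the pair's RPKM (y axis), by group and tumor, with the mean and SD in red. The Cox6b2 and Ndufa4l2 shares are higher in CD34 negative CAFs of every tumor, and the Cox4i2 share is at most 0.325%.

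Other tissue isoforms of complex IV had few reads. Cox4i2, the lung and hypoxia isoform of subunit 4, had 2 to 41 reads per library and made up 0.0577% to 0.325% of the Cox4i1 and Cox4i2 RPKM. Cox7a1, the heart and muscle isoform of subunit 7A, had 26, 15 and 0 reads in CD34 negative and 6, 31 and 4 in CD34 positive CAFs, so its fitted log2 fold change of -0.99 ± 1.59 (SE) carried little information. Cox6a2, the muscle isoform of subunit 6A, had at most 8 reads, and Cox8b had 11 reads in CD34 negative library 1 and 0 elsewhere, and both were removed by the filter. Cox7b2 and Cox8c, isoforms known mostly from testis, were at 0 in all 6 libraries, where 3 counts would be 0.0346 to 0.185 CPM. Uqcr11, a small subunit of complex III used by most cells, was also listed at 0 in every library, so this 0 is given as a count only and says nothing of its expression.

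The somatic isoforms had much higher levels. Cox4i1 had the highest level per length in complex IV, at 198 ± 34.2 RPKM (SD, n = 3) in CD34 negative and 192 ± 20.8 (SD, n = 3) in CD34 positive CAFs, with a log2 fold change between -0.40 and 0.47 (95% interval). For Cox6a1 the interval ran from -0.45 to 0.49, for Cox8a from -0.50 to 0.57, for Cox7a2 from -0.81 to 0.52, and for Cox7a2l from -0.36 to 0.60. Cox7c and Cox6c, small membrane subunits, had log2 fold changes of -0.67 ± 0.284 and -0.52 ± 0.184 (SE), and neither was called with the block (limma-voom adjusted p = 0.129 and 0.0693). Of their 50-base transcript windows, 23% for Cox7c and 9.05% for Cox6c also occurred in transcripts of other genes. Exons of Cox6c overlap those of Vps13b on the other strand over 250 bases.

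Ndufa6, an accessory subunit in the matrix arm of complex I that belongs to the LYR protein family, was the complex I member with the largest difference. It was at 23.8, 17.0 and 17.8 CPM in CD34 negative CAFs and at 9.40, 7.83 and 12.7 CPM in CD34 positive CAFs. The groups did not overlap. The log2 fold change was 1.10 ± 0.276 without and 0.97 ± 0.246 with the block (SE; limma-voom adjusted p = 0.142 and 0.0410). edgeR with the block did not call it (adjusted p = 0.0880). The within-tumor ratios were 1.33, 1.12 and 0.49. Its call with the block was lost once all libraries were thinned to the smallest total. There the log2 fold change with the block was 0.80 and the adjusted p 0.123. The gene lies at 82350139 to 82354291 on chromosome 15, and none of its 50-base windows was found in another gene's transcripts.

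No other gene of complex I was called by limma-voom or edgeR in either design. The median log2 fold change over its 36 genes was -0.11, 24 were below 0, and the 95% interval lay within 2-fold either way for 29 of them. Among the 7 catalytic core genes, which carry the flavin and iron-sulfur clusters or bind coenzyme Q, the median was 0.13, and over the 29 accessory genes -0.14. Ndufs1, the largest core subunit, was at 38.0, 48.9 and 39.3 CPM against 49.4, 67.1 and 59.7 CPM, without overlap, and its log2 fold change of -0.51 ± 0.192 (SE) was not called by limma-voom (adjusted p = 0.292 without and 0.0724 with the block). DESeq2 with the block did call it (adjusted p = 0.0482). Exons of Ndufs1 overlap an antisense transcript, Ino80dos, over 489 bases, and the library kit does not mark strand. Ndufa2 had the highest level per length in complex I, at 73.8 RPKM on average.

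Complex II, succinate dehydrogenase, which also serves the citric acid cycle, had 4 members with differences near 0. The log2 fold change was -0.17 ± 0.185 (SE) for Sdha, which binds flavin, 0.00 ± 0.190 for Sdhb, which holds the iron-sulfur clusters, -0.19 ± 0.184 for Sdhc and 0.06 ± 0.343 for Sdhd. All 4 intervals lay within 2-fold. Per length, Sdha, Sdhb and Sdhc were close together at 39.7, 42.6 and 41.5 RPKM, whereas Sdhd, the partner of Sdhc in the membrane anchor, was listed at 3.23 RPKM.

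In complex III, which hands electrons from coenzyme Q to cytochrome c, the median log2 fold change over 8 tested genes was -0.05. Uqcrb, a small subunit near the coenzyme Q site, was at 21.8, 34.0 and 23.6 CPM in CD34 negative and 30.4, 52.9 and 35.0 CPM in CD34 positive CAFs. The groups overlapped, each tumor's CD34 negative library was the lower one, and the log2 fold change was -0.65 ± 0.273 (SE; limma-voom adjusted p = 0.333 without and 0.0543 with the block). Uqcrc2, a core protein, had a log2 fold change of -0.41 ± 0.187 (SE), and its groups did not overlap. It was not called (limma-voom adjusted p = 0.366 without and 0.109 with the block). Exons of Uqcrc2 overlap Pdzd9 on the other strand over 504 bases. Exons of Uqcrb overlap Gm10767 on the other strand over 50 bases, and DESeq2 with the block called Uqcrb (adjusted p = 0.0334). Uqcrh, the hinge protein, had the highest level per length at 193 RPKM, and its interval ran from -0.62 to 0.26.

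In complex V, 16 of 17 log2 fold changes were below 0 and the median was -0.24, beside -0.03 over all tested genes. One of the 16, Atp5g2, was at 0.02 once the reads of its pseudogene copy were added. Ribosomal protein genes, a list added after values were seen, lay to the same side, with 64 of 74 below 0 and a median of -0.28 for mitochondrial ribosomes and 74 of 80 and -0.46 for cytosolic ones. Atp5k, subunit e of the membrane part, where it supports the pairing of ATP synthases, was the gene that passed with the block. It was at 18.3, 24.0 and 21.5 CPM in CD34 negative and at 29.4, 43.6 and 29.2 CPM in CD34 positive CAFs, without overlap. The log2 fold change was -0.74 ± 0.235 without and -0.70 ± 0.176 with the block (SE; limma-voom adjusted p = 0.214 and 0.0406). edgeR with the block did not call it (adjusted p = 0.0923). Its gene lies at 108433246 to 108434399 on chromosome 5. With the block, Atp5k, Cox6b1 and Ndufa6 were each not called when tumor 1 or tumor 2 was left out.

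Within complex V the median was -0.46 for the 5 genes of the membrane part, -0.19 for the 4 of the peripheral stalk, -0.14 for the 3 c-ring genes and -0.11 for the 5 of the F1 head and central stalk. Atp5md, a further small membrane subunit, had a log2 fold change of -0.63 ± 0.262 (SE), and the catalytic subunit gene Atp5b, at 216 RPKM the highest of all members, one of -0.11 ± 0.234 (SE). Atp5d, the delta subunit of the central stalk, was the single complex V gene above 0, at 0.55 ± 0.269 (SE), and was not called (limma-voom adjusted p = 0.399 without and 0.136 with the block). Its exons overlap Cbarp on the other strand over 68 bases. The low complex V values came from tumors 1 and 2, where the medians were -0.24 and -0.41, while in tumor 3 the median was 0.07.

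Over the whole group, the median was below 0 in tumors 1 and 2 and above 0 in tumor 3, while the summed level was lower in the CD34 negative library of all 3 tumors. The median log2 fold change over the 80 members was -0.14, and 55 were below 0, with tumor medians of -0.09, -0.27 and 0.06. Without CD34 positive library 2, the deepest, the median was 0.02. Summed over all members and scaled by library size and TMM factor, the level was 3385, 3908 and 3651 CPM in CD34 negative and 3567, 4654 and 3671 CPM in CD34 positive CAFs. The ranges overlapped, and within each tumor the CD34 negative library was the lower one, by little in tumor 3. The log2 ratio of the group means was -0.12, and without CD34 positive library 2 it was 0.00. The 95% interval of the log2 fold change lay within 2-fold either way for 60 of 80 members (75%), beside 41.9% of all tested genes. These shares depend on the width of the intervals. The median SE was 0.234 over members and 0.322 over all tested genes, which were not matched to the members for level. The groups did not overlap for 9 members (11.2%), 2 higher and 7 lower in CD34 negative CAFs, beside 20.5% of all tested genes. The sign was the same in all 3 tumors for 30 members (11 higher, 19 lower), beside 46.3% of all tested genes.

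Gene length moved with this lower median. The members are short, with a median length of 679 bases against 2760 over all tested genes, and all tested genes of at most 1000 bases had a median log2 fold change of -0.21. Members of at most 600 bases had a median of -0.26 and longer ones -0.11. After the trend of expression on length was removed in each library, the member median was -0.03, the same as over all tested genes, and complexes IV and V were at -0.04 and -0.11. With the block and the trend removed, Atp5k and Cox6b1 had log2 fold changes of -0.41 and -0.42 and were no longer called (limma-voom adjusted p = 0.209 and 0.101), whereas Cox6b2 at 2.06 and Ndufa6 at 1.14 were called (adjusted p = 0.0121 and 0.0241). With the block alone, the log2 fold changes of Atp5k, Cox6b1, Cox6b2 and Ndufa6 were -0.70, -0.59, 1.90 and 0.97. What links length and fraction was not tested.

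**Figure D4:**
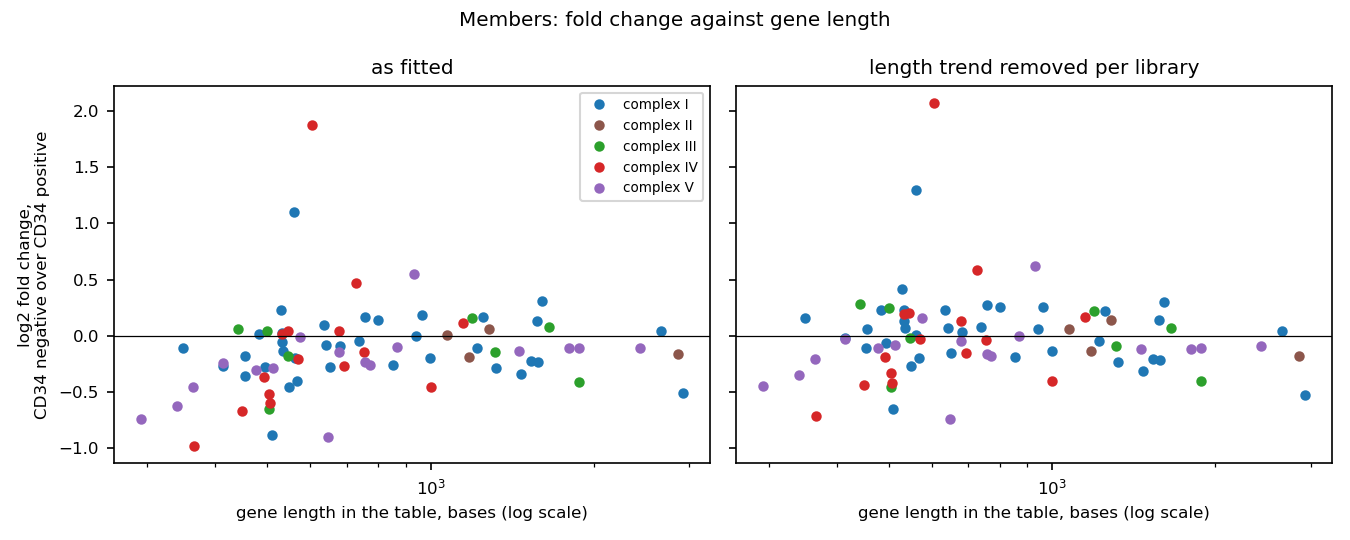
Log2 fold change of the 80 tested members (y axis) against gene length in bases (log x axis), as fitted (left) and after removal of the length trend in each library (right), coloured by complex. The shortest members lie below 0 on the left and nearer to 0 on the right, and Cox6b2 and Ndufa6 stay apart.

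Several members have annotated pseudogene copies with rows of their own, and reads from identical stretches can be counted in either. Atp5g2, which encodes the c subunit of the proton-driven ring together with Atp5g1 and Atp5g3, lies on chromosome 15 at 102662868 to 102671047, and Gm10175 on chromosome 7 at 23946646 to 23947290 (GRCm38.p6). The whole 645-base transcript of Gm10175 occurs in Atp5g2. The first 150 coding bases of Atp5g2, shown because they are identical in both and a read from them fits either row, are:

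Atp5g2 and Gm10175: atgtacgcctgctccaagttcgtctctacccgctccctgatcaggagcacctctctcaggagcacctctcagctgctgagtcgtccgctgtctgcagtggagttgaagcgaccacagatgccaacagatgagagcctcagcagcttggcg

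Atp5g2 had 187, 175 and 297 reads in CD34 negative and 161, 748 and 190 in CD34 positive CAFs, and Gm10175 had 3669, 2926 and 2284, and 1060, 5677 and 1440. The pseudogene row thus held 90.7% of the reads of the pair. Atp5g2 alone had the lowest log2 fold change of complex V, -0.90 ± 0.383 (SE), and with the reads of Gm10175 added it was 0.02 ± 0.173 (SE; limma-voom adjusted p = 0.974). The value of Atp5g2 alone is therefore uncertain, and so is its share of the c-ring genes, of which Atp5g3 held 83.4% to 87.0% per length in the 6 libraries.

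Ndufs5, a complex I accessory subunit, had 37 to 544 reads per library and Ndufs5-ps 331 to 2651, which was 86.3% of their sum. Its log2 fold change changed from -0.88 to -0.42 ± 0.228 (SE) with these reads added. The transcripts of this pair were not compared. For Uqcrb, Gm16089, which was 97.9% identical to it over the aligned length, held 34.3% of the sum, and the log2 fold change went from -0.65 to -0.55 ± 0.272 (SE). In the GENCODE transcripts, 37 of the 83 members found there shared at least 1 50-base window with another gene, and 16 shared more than 10% of their windows, led by Atp5l with 68.5%. Atp5k shared 1.08%, and Ndufa6, Cox6b1 and Cox6b2 shared none.

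**Figure D5:**
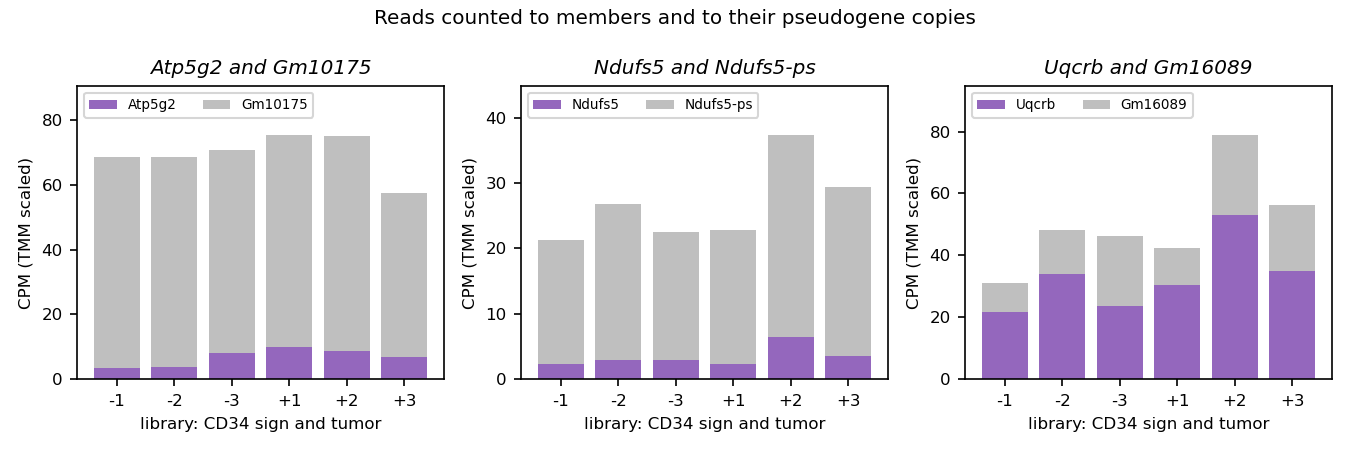
Stacked CPM (y axis) of 3 members and of a pseudogene copy of each, by library (CD34 sign and tumor number, x axis). For Atp5g2 and Ndufs5 the grey pseudogene part is the larger part of the bar in all 6 libraries, and for Uqcrb the smaller one.

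The 13 subunits encoded by mitochondrial DNA gave no call in any of limma-voom, edgeR or DESeq2, with or without the block, and 0 had an unadjusted p under 0.05. Their log2 fold changes ran from -0.21 to 0.12 with a median of 0.00, and all 13 intervals lay within 2-fold. They took 1.80% to 2.61% of a library, and per read of a nuclear member there were 6.51, 4.57 and 6.94 mitochondrial reads in CD34 negative and 6.61, 4.08 and 6.56 in CD34 positive CAFs. This ratio followed the tumor more than the fraction, being lowest in both libraries of tumor 2.

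Around the complexes, few genes passed. Of 48 tested assembly factors for complexes I to V, 0 were called by limma-voom, edgeR or DESeq2 with or without the block (3 had an unadjusted p under 0.05 without the block in limma-voom, where 14.3% of all tested genes did, and 7 with it, where 23.3% did). The median was -0.14 over these factors and -0.35 over the 20 that serve complex IV. The 15 genes of the citric acid cycle had a median of -0.14, the 12 genes of electron carriers and coenzyme Q synthesis -0.06, the 7 nucleotide and phosphate carriers and uncoupling proteins -0.13, and the 11 factors of mitochondrial biogenesis 0.00. None of these 4 lists had a call in limma-voom or edgeR with or without the block. Of all tested genes, limma-voom called 0.121% without and 8.57% with the block, and edgeR 0.0606% and 3.87%. At an unadjusted p under 0.05 in limma-voom, the 4 lists had 2, 0, 0 and 1 genes without the block, beside 14.3% of all tested genes. With it they had 4, 0, 1 and 3, beside 23.3%. DESeq2 with the block called 1 gene of these 4 lists, Gabpa, beside 11.7% of all tested genes. Gabpa was lower in the CD34 negative library of every tumor, with a log2 fold change of -0.61 ± 0.179 (SE). Its limma-voom adjusted p was 0.184 without and 0.0530 with the block. Exons of Gabpa overlap those of the member Atp5j on the other strand over 397 bases.

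Of 5 genes linked to the oxygen-dependent exchange of subunits (Epas1, Hif1a, Higd1a, Ndufa4l2 and Lonp1), 3 were called with the block, beside 8.57% of all tested genes, and 0 without it, where 3 had an unadjusted p under 0.05, beside 14.3%. This short list was chosen with earlier results of these data known. Epas1, which encodes the oxygen-regulated factor HIF-2alpha, was higher in CD34 negative CAFs of all 3 tumors. Its log2 fold change without the block was 0.87 ± 0.363 (SE; limma-voom adjusted p = 0.332 without and 0.0146 with the block). Hif1a, which encodes HIF-1alpha, and Higd1a, a hypoxia-induced partner of complexes III and IV, were called lower with the block (limma-voom adjusted p = 0.0291 and 0.0394). Without it, their log2 fold changes were -0.55 ± 0.356 and -0.92 ± 0.362 (SE; limma-voom adjusted p = 0.524 and 0.308). In this list edgeR with the block called 1 gene, Epas1, beside 3.87% of all tested genes. DESeq2 with the block called Epas1, Hif1a and Ndufa4l2, beside 11.7%.

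Ndufa4l2, a paralog of Ndufa4 that is induced by low oxygen and also known from pericytes, was at 27.8, 32.3 and 58.4 CPM in CD34 negative and 12.7, 26.2 and 10.4 CPM in CD34 positive CAFs, without overlap. Its log2 fold change was 1.03 ± 0.415 (SE), and limma-voom did not call it (adjusted p = 0.316 without and 0.110 with the block). Per length it made up 26.8%, 21.8% and 33.5% of the Ndufa4 and Ndufa4l2 level in CD34 negative CAFs and 9.43%, 13.8% and 8.96% in CD34 positive CAFs, with an exact two-sided permutation p of 0.1 (0.25 adjusted over the 5 shares). The permutation again did not use the pairing by tumor. The pericyte markers given above moved the same way, and their part in this share was not tested.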

How the data were processed

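Sorted cells were frozen and later lysed in QIAzol, RNA was purified with a miRNeasy micro kit, and libraries were made with TruSeq RNA v2, which does not mark strand, and sequenced on a NextSeq 500. Per the labels and the study's methods, the authors aligned reads to GRCm38 (mm10) and deposited raw counts per NCBI gene from featureCounts (Rsubread). Read length, strand setting and the treatment of reads with several matches were not given in the sources used here. Groups and tumor numbers came from the sample titles.

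Counts were filtered with filterByExpr (minimum count 10), scaled by TMM and fitted with voom and limma 3.58.1 in R 4.3.3, two-sided, with Benjamini-Hochberg adjustment over all 14855 tested genes and a threshold of 0.05. edgeR 4.0.16 and DESeq2 1.42.0 were alternatives. Positive log2 fold changes mean higher in CD34 negative CAFs. Log2 fold changes, SE and intervals are from limma-voom without the tumor term unless the block is named for the value itself. CPM of single genes and RPKM are scaled by library total and TMM factor, and RPKM also by the length in the table. Within-tumor ratios are differences of voom log2 CPM. Length trends were removed by loess (span 0.3). The tumor number pairs libraries because both fractions of a pair came from 1 tumor, and the residuals from each group's mean, taken over the tested genes, had correlations of 0.373, 0.350 and 0.219 between the libraries of tumors 1, 2 and 3. Without the block, p-values measure the spread among the libraries of a group, taken as independent. With it, they measure how the difference between the fractions varies over these 3 tumors. In limma-voom both spreads are moderated over all tested genes.

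Members and lists were chosen with earlier results of these data known. Named members were those called with or without the block, the 3 largest changes and the highest RPKM of each complex, isoform partners and members at 0 or filtered out. Cox6c, Lonp1, Atp5d, Atp5g1, Atp5g3, Atp5l, Gabpa and the pseudogenes were named after their values were seen. Sequences and positions are from RefSeq (GRCm38.p6), transcripts and exon overlaps from GENCODE vM21. The scripts were tested on simulated data.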

Additional observations from a re-analysis of the deposited data

How the results depend on the processing

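The count of members called depended on the fit. It was 0 in limma-voom without the block and under RLE factors, library totals alone, both other filters, annotated protein-coding genes only, edgeR, the length correction, removal of the 10 most abundant genes and thinning. In these fits 0.0606% to 0.215% of all tested genes were called. Without the block, it was also 0 whichever library or tumor was left out, beside 0% to 0.577% of all genes tested in those fits. It was 1 with DESeq2 (beside 4.7% of all tested genes) and 1 with sample quality weights (beside 1.08%), Cox6b2 in both. The replicate block, which pairs the libraries of a tumor, gave 4 in limma-voom (beside 8.57% of all tested genes), 1 in edgeR (3.87%) and 6 in DESeq2 (11.7%). With the block it was 2 with the length trend removed (7.94%) and 3 after thinning to the smallest total (8.9%). Thinning was an alternative chosen after seeing the data, as was the adding of pseudogene reads. With the block and without tumor 1 it was 1, without tumor 2 it was 0 and without tumor 3 it was 13. Beside these counts, 7.61%, 5.82% and 13% of all genes tested there were called, and each tumor bears on which members pass. The median log2 fold change of the members ran from -0.23 to 0.02 when single libraries or tumors were dropped, and the summed member level from -0.19 to 0.00, with the upper end of both without CD34 positive library 2. The median of complex V stayed between -0.34 and -0.05 there, while those of complexes I (-0.22 to 0.12), II (-0.18 to 0.05), III (-0.17 to 0.08) and IV (-0.38 to 0.02) changed sign. The log2 fold changes of Cox6b2, Ndufa6, Cox6b1 and Atp5k kept their sign in all fits listed here. The depth of CD34 positive library 1, 16238059 counts, limits low members such as Cox4i2 and Cox7a1.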
